A study of Mus musculus with 16 samples.

Results

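Complement and coagulation proteins are made largely by hepatocytes and secreted into plasma. The 43 genes described here were chosen by symbol: 14 procoagulant factors and contact proteins, 8 anticoagulant or fibrinolytic proteins and their inhibitors, 10 proteins of the classical and lectin complement pathways, 3 of the C3 and alternative pathway, and 8 terminal complement proteins and their fluid-phase regulators. Of the 43, 42 had a row among the 35275 genes of the deposited table and 41 passed the filter on low values, an FPKM of at least 1 in at least 4 libraries, which kept 11298 genes. FPKM is a fragment count scaled to the length of the gene and the depth of the library. Klkb1 had no row and has no expression values here, and Cfb did not pass the filter.

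Liver RNA was compared between WT mice and mice with a liver-specific knockout of Zfp36l1 (LKO), each fed a control diet or a diet containing ethanol, in 4 groups of 4 libraries: WT control, WT ethanol, LKO control and LKO ethanol. The protein made from Zfp36l1 attaches to AU-rich sequence in transcripts and speeds up their decay. Age, sex, strain, the amount of ethanol, the length of feeding, the Cre driver and the alleles carried by the WT mice are not given in the sources used here. Libraries are numbered in record order, and since nothing states that they came from separate animals, p-values measure only the spread between these libraries. In bulk liver RNA, fewer cells of a type and less RNA per cell cannot be told apart.

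The libraries labelled LKO held 0.572 to 1.76 FPKM of Zfp36l1 and those labelled WT 9.3 to 25.5. Total reads ranged from 19069903 to 24768569 in 15 libraries and were 9890475 in WT ethanol library 2. That library also stood apart in other ways: mitochondrial transcripts took 22.52% of its reads against 3.64 to 6.97%, and its median Spearman correlation with the other libraries was 0.691 against 0.905 to 0.951. Ethanol and genotype results are therefore given with it and, where it moved them, without it. Every group was also split: its libraries 1 and 2 (side A) lay apart from its libraries 3 and 4 (side B) along the main axis of variation inside the groups, to which 40% of that variation belonged. No label names a batch that matches these sides. Hepatocyte markers, which included albumin, summed to 43130 to 72740 FPKM over the 16 libraries. In WT ethanol library 2 they went opposite ways, with Apoa1 at 34500 FPKM the highest and Alb at 23000 the lowest of the 16.

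Complement is a cascade of plasma proteins that marks and lyses microbes. The classical and lectin pathways start it through recognition molecules with attached proteases, all routes meet at C3, and cleavage of C5 starts assembly of C6, C7, C8 and C9 into the membrane attack complex. Coagulation is a parallel cascade of liver-made proteases that ends in thrombin, which turns fibrinogen into fibrin. Antithrombin, the protein C system and other serpins restrain it, and plasmin dissolves the clot. Many of these transcripts belong to the acute phase response of the liver, and reduced synthesis of clotting factors is a known feature of liver disease.

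These transcripts were among the most abundant of the liver. Of the 41 tested genes, 26 had a mean above 100 FPKM over the 16 libraries, 6 a mean above 1000 FPKM, and 9 were among the 100 genes with the highest mean. The 6 highest were Fgb with a mean of 3335 FPKM, Fgg with 2981, Fga with 1481, C3 with 1325, Kng1 with 1189 and Vtn with 1020. The lowest tested were C2, with a mean of 4.62 FPKM, and C6, with 4.8. Together the genes took 3.38 to 5.97% of the reads of 15 libraries and 2.39% of WT ethanol library 2. Every tested gene had at least 136 reads in each of the 15 libraries. In WT ethanol library 2 the lowest was F13b with 29 reads.

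Several of the genes are neighbours in the genome (GRCm38, positions from GENCODE M21). The fibrinogen genes Fgg (chr3:83007724-83015049), Fga (chr3:83026076-83033627) and Fgb (chr3:83040141-83049863) lie side by side, as do F7 (chr8:13026034-13035809) and F10 (chr8:13037308-13056676), C8b (chr4:104766317-104804548) and C8a (chr4:104815679-104876398), and Hrg (chr16:22951072-22961656), Kng2 (chr16:22985854-23029482) and Kng1 (chr16:23057865-23082078). For a few genes, overlap could move reads, since the strandedness of the counting is not given in the sources used here. Gm20547, a gene on the same strand that is listed at 0 in all libraries, shares 79.5% of the exon bases of Cfb and 42.8% of those of C2. Tardbp lies opposite to 54.9% of the exon bases of Masp2, and Zbtb37 opposite to 34.4% of those of Serpinc1. C4b has a near-identical copy, C4a, at 0.491 to 8.83 FPKM in 15 libraries. Cfb, Masp2, C2, Serpinc1 and C4b are uncertain for these reasons.

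The promoters of the 3 terminal complement genes that fell with ethanol (C9, C8a and Hc) are shown with that of Fgb, which did not pass the test. Each runs from 250 bases before to 50 bases after the gene's start (RefSeq, GRCm38.p6), and capitals mark matches on either strand to GTTAAT (HNF1), CAAAGTCCA (HNF4), TTGCNNAA (C/EBP) or TTCNNNGAA (STAT), motifs of factors known to act on liver secretory genes.
C9 (chr15:6445096-6445395, plus strand): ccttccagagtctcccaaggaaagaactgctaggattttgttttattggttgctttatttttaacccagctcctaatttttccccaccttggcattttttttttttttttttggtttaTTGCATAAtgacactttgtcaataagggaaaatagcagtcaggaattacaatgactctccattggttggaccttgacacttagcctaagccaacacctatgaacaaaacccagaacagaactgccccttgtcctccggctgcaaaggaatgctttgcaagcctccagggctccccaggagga
C8a (chr4:104876349-104876648, minus strand): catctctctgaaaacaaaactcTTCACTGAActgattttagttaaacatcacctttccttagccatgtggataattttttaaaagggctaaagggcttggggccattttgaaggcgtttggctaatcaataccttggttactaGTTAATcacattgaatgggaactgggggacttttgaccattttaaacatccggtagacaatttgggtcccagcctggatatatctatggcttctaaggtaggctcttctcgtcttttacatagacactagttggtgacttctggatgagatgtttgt
Hc (chr2:35061363-35061662, minus strand): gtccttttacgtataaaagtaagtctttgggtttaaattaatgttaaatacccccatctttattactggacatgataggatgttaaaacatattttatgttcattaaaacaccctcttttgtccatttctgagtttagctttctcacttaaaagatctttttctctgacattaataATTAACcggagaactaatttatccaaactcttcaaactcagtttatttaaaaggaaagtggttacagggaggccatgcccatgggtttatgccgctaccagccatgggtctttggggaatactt
Fgb (chr3:83049814-83050113, minus strand): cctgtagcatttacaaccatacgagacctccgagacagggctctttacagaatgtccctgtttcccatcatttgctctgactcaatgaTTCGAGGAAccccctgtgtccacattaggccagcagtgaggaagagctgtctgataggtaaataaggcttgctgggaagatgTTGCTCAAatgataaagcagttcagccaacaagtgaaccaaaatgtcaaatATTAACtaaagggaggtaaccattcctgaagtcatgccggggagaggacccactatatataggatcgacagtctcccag
No 2 matches overlap in these 4 windows. C9 holds a C/EBP match, C8a an HNF1 and a STAT match, Hc an HNF1 match, and Fgb a match to 3 of the motifs.

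RefSeq promoters were matched for 33 of the 43 genes, Klkb1 included. GTTAAT was present in 10 of these (30.3%) against 7.1% of all 32851 promoters of the same length, TTGCNNAA in 13 (39.4%) against 10.8%, TTCNNNGAA in 8 (24.2%) against 8.3%, and CAAAGTCCA in 0 against 0.475%. Of the 14 genes called lower over both genotypes without WT ethanol library 2, 10 had a promoter, and 3 held GTTAAT, 3 TTGCNNAA and 2 TTCNNNGAA. The 33 were counted as genes, with a match in any promoter of a gene enough, while the background counts single promoters. The shares are therefore not in like units. These are matches of letters in a short window and describe sequence only.

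Because Zfp36l1 binds AU-rich sequence, the annotated 3′ untranslated regions (GENCODE M21, GRCm38) were read for the 7-mer TATTTAT. It was present in 4 of 41 genes (9.76%) against 28.9% of 10541 tested genes. The regions of the 41 genes were also shorter, with a median of 467 bases against 1285. The 5 sites are shown with 10 bases on each side, the 7-mer in capitals.
F13b: atactttcctTATTTATcaatcaaagc
Fgg: ttctttactcTATTTATtaatttttgt
Serpinc1: tatatataggTATTTATagttaaggtc
Masp1: taaaatagcgTATTTATccttatcaga
Masp1: caatttattcTATTTATcctccaaatt
The sites begin at base 109 of 325 in F13b, at base 105 of 362 in Fgg, at base 1476 of 3400 in Serpinc1, and at bases 2016 and 2101 of 2965 in Masp1. None of these 4 genes differed between LKO and WT past the threshold in any comparison, with all libraries or without WT ethanol library 2.

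Ethanol feeding lowered a group of complement and coagulation transcripts and raised none. Averaged over both genotypes, 6 of 41 genes were called lower: C9, C8a and Hc of terminal complement, the lectin Mbl2, coagulation factor F11 and the anticoagulant protease Proc. Over all 11298 genes, 3.19% were called lower and 4.59% higher in the same comparison. Leaving out WT ethanol library 2 gave 14 lower (5.7% of all genes lower, 14.8% higher), which added the coagulation genes F7, F9, F10, F13b and Kng1, the lectin Mbl1, and the complement inhibitors Cfi and Serping1. The call rested on limma's test of log2(FPKM + 1), with a p below 0.05 after adjustment over all genes kept. The median log2 change of the 41 genes was −0.50 against 0.02 over all genes, and 38 of 41 were negative. With that library left out the medians were −0.38 and 0.11, again with 38 negative. Under median-of-ratios scaling without that library the median over all genes moved to −0.01 and that of the 41 genes to −0.53, with 39 negative. The share of all genes called lower also turned on the scaling. Without that library 644 of all genes were lower and 1668 higher. Median-of-ratios scaling gave 1106 and 1115, with 18 of the 41 genes lower. Quantile normalization gave 1100 and 1156, with 14 of the 41 lower.

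Within a single genotype few genes passed the test. In WT mice C8a alone was called, lower, with 1.59% of all genes called lower. When WT ethanol library 2 was left out, F13b and Proc were called in its place, with 2.25% of all genes called lower. Over all genes 292 were called higher and 180 lower in WT, a split that became 477 and 466 under quantile normalization and 379 and 386 under median-of-ratios scaling. In LKO mice C9 alone was called, with 0.257% of all genes lower, and without that library F11 was called too, with 1.4%. A count that needs no model was similar in both genotypes: 10 of 41 genes in WT and 12 in LKO had all ethanol libraries below all control libraries, against 4.45% and 4.14% of all genes. C9, Cfi, F13b, F2, F9 and Proc did so in both genotypes, against 1.3% of all genes. None of the 41 had all ethanol libraries above all control libraries in either genotype, against 5.62% of all genes in WT and 8.15% in LKO.

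**Figure D1:**
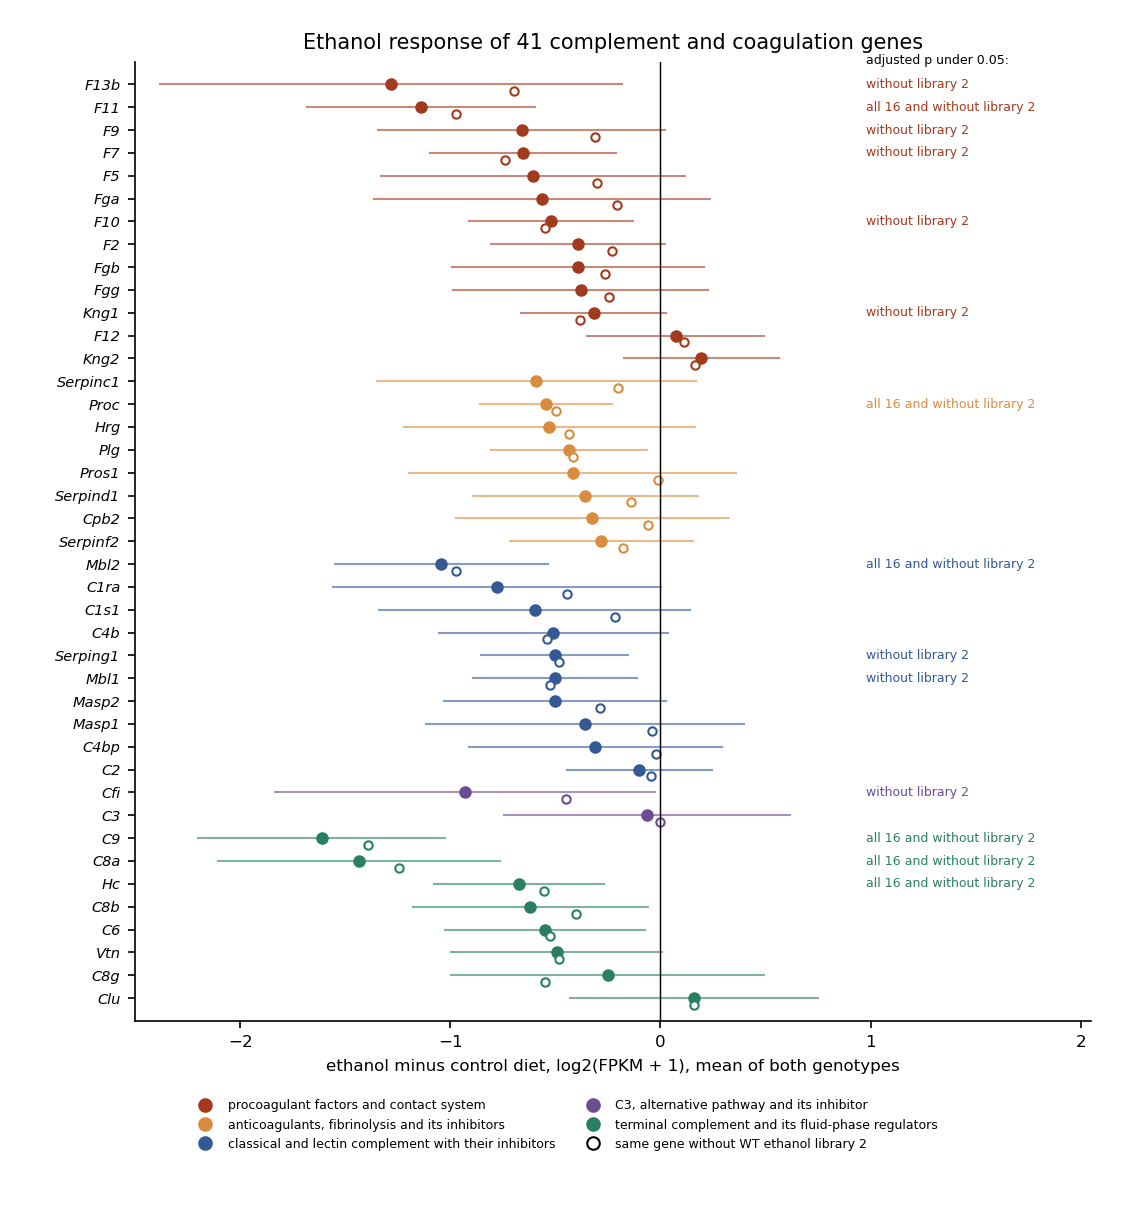
Ethanol minus control diet in log2(FPKM + 1), mean of both genotypes, for the 41 tested genes by role. Filled points and bars are estimates and 95% confidence intervals with all 16 libraries, open points the estimates without WT ethanol library 2, and the words at the right name the fits in which a gene was called. The point of C9 at −1.61 is the lowest, and 38 of 41 filled points lie left of 0.

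In the terminal pathway, which held the lowest estimates of the 41 genes in C9 and C8a, 3 of 8 genes (C9, C8a and Hc) were called lower over both genotypes with all libraries and without WT ethanol library 2, with a median log2 change of −0.58 and −0.54 over the 8. C9 encodes the subunit that polymerises to form the pore of the membrane attack complex. It measured 87.5, 82.3, 66.9 and 96.5 FPKM in the WT control libraries 1 to 4, 63.5, 12.8, 45.6 and 32.1 in WT ethanol, 67.1, 78.3, 64 and 141 in LKO control and 28.4, 21, 14.9 and 21.6 in LKO ethanol. Every ethanol library lay below every control library of its genotype, and LKO control library 4 was the highest of all. The means were 83.3 ± 12.4, 38.5 ± 21.4, 87.5 ± 36 and 21.5 ± 5.54 FPKM (SD, n = 4). C9 fell by 1.61 over both genotypes on the log2 scale (SE 0.28, adjusted p = 0.00221). The change was −1.94 (SE 0.39, adjusted p = 0.0389) in LKO and −1.29 (SE 0.39, adjusted p = 0.0765) in WT. The estimate over both genotypes was −1.39 (SE 0.20, adjusted p = 0.000379) without WT ethanol library 2. The call in LKO was lost when any of 13 libraries was left out, among them all 4 LKO control and all 4 LKO ethanol libraries, with an estimate of −2.08 to −1.68, whereas the call over both genotypes held in all 16 such fits.

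C8a encodes the alpha chain of C8, which inserts the growing complex into the membrane. It measured 73.5, 55.3, 108 and 104 FPKM in the WT control libraries 1 to 4, 27.2, 10.9, 30.3 and 44.2 in WT ethanol, 46.2, 35.3, 63.1 and 153 in LKO control and 30.8, 39.6, 19.5 and 21.6 in LKO ethanol. In WT all ethanol libraries lay below all control libraries, while in LKO ethanol library 2 overlapped control library 2. C8a fell by 1.44 over both genotypes (SE 0.32, adjusted p = 0.0105), and by 1.66 in WT (SE 0.45, adjusted p = 0.0459). The changes were −1.24 (SE 0.28, adjusted p = 0.00581) and −1.28 (SE 0.41, adjusted p = 0.0572) without WT ethanol library 2, so that the call in WT was lost. It was also lost without any 1 of 10 other libraries, among them all 4 WT control libraries. The call over both genotypes held when any 1 library was left out, LKO control library 4 included. The LKO change within side A was −0.20 and within side B −2.21.

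Hc encodes complement C5, the source of the anaphylatoxin C5a and of the C5b that starts the terminal complex. It measured 121, 136, 147 and 165 FPKM in the WT control libraries 1 to 4, 78.6, 46.7, 94.1 and 103 in WT ethanol, 96.4, 119.6, 127 and 128 in LKO control and 83.2, 71.3, 71.6 and 113 in LKO ethanol. The WT groups did not overlap, and in LKO 1 ethanol library, library 4, lay above control library 1. Hc fell by 0.67 over both genotypes (SE 0.19, adjusted p = 0.0396), and the change was −0.55 (SE 0.13, adjusted p = 0.00923) without WT ethanol library 2. With all 4 WT ethanol libraries kept, the adjusted p passed 0.05 when any single control library, or LKO ethanol library 1, 2 or 3, was left out, and reached at most 0.088.

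**Figure D2:**
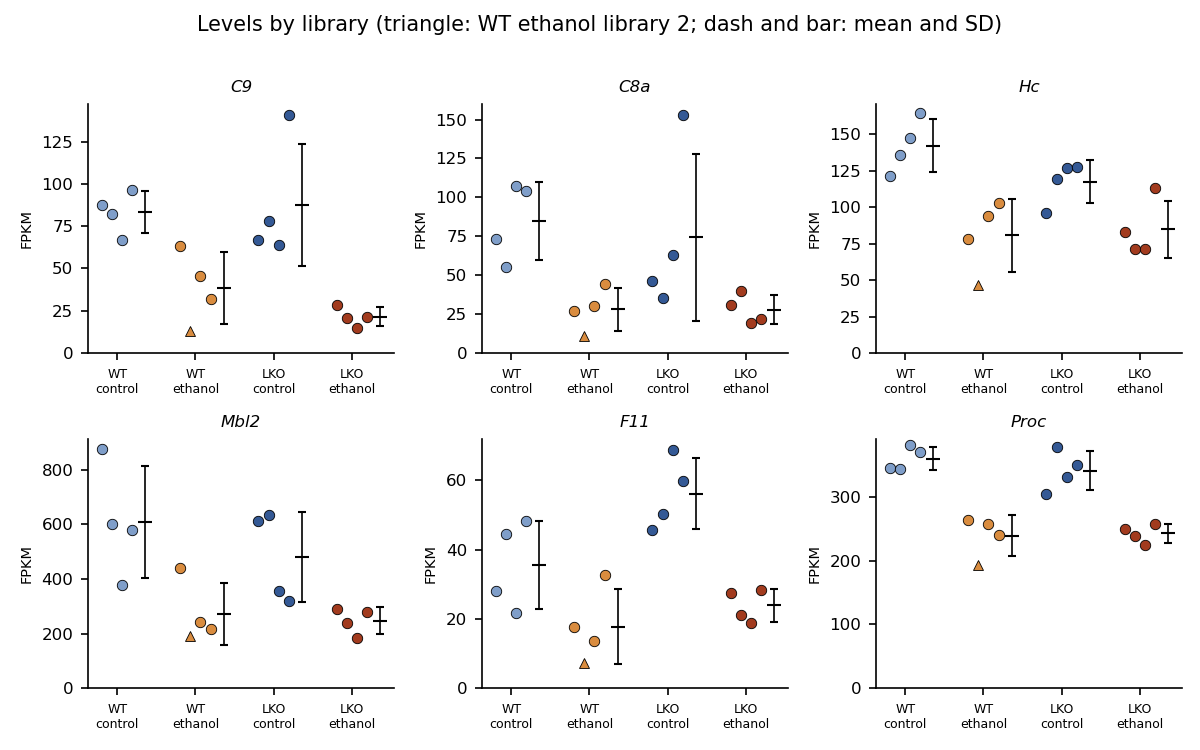
FPKM by library (y axis) in the 4 groups (x axis) for the 6 genes called with all libraries, libraries 1 to 4 from left to right, with the mean and SD beside them. WT ethanol library 2 is the triangle. C9 and Proc show no overlap between diets in either genotype, and LKO control library 4 stands at 141 FPKM of C9 and 153 FPKM of C8a.

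The other terminal genes did not pass the test. C8b, which encodes the beta chain of C8, was estimated at −0.62 (SE 0.26, adjusted p = 0.175) and at −0.40 (SE 0.18, adjusted p = 0.118) without WT ethanol library 2. C6, which joins C5b first, had estimates of −0.55 (SE 0.23, adjusted p = 0.154) and −0.53 (SE 0.23, adjusted p = 0.119). LKO control library 4 was the highest library for both, at 130.5 FPKM of C8b and 14.6 of C6, as it was for C9 and C8a. C8g encodes the small lipocalin-like gamma chain of C8, and WT ethanol library 2 held 962 FPKM of it against 102 to 421 in the others. Its estimate went from −0.25 (SE 0.35, adjusted p = 0.749) to −0.55 (SE 0.24, adjusted p = 0.122) without that library. The ratio of C8a to C8b ranged from 0.676 to 1.73 in the control libraries and from 0.364 to 1.03 in the ethanol libraries other than WT library 2, which overlap.

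Vtn and Clu encode vitronectin and clusterin, which keep soluble terminal complexes from inserting into membranes. Vtn, the most abundant gene of this class, measured 1124 ± 456 FPKM in WT control, 804 ± 232 in WT ethanol, 1276 ± 329 in LKO control and 876 ± 244 in LKO ethanol (SD, n = 4). Its estimate over both genotypes was −0.49 (SE 0.24, adjusted p = 0.243), and that of Clu was 0.16 (SE 0.28, adjusted p = 0.803). Neither passed the test with or without WT ethanol library 2. With the side added to the model and that library left out, Vtn was called at −0.55 (SE 0.10, adjusted p = 0.00154).

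In the classical and lectin pathways 1 of 10 genes, Mbl2, was called lower over both genotypes, and 3, with Mbl1 and Serping1, without WT ethanol library 2 (median log2 change −0.50 and −0.37). Mbl2 encodes mannose-binding lectin C, which recognises microbial sugars and carries the MASP proteases. It measured 876, 603, 379.7 and 578 FPKM in the WT control libraries 1 to 4, 440.2, 192, 241 and 218 in WT ethanol, 614, 635, 358 and 321 in LKO control and 291, 240.4, 183 and 278 in LKO ethanol. In LKO no ethanol library reached the lowest control library, and in WT ethanol library 1 overlapped the control range. Mbl2 fell by 1.04 over both genotypes (SE 0.24, adjusted p = 0.0131), and the change was −0.97 (SE 0.22, adjusted p = 0.00726) without WT ethanol library 2. Mbl2 was also lower on side B of the split in all 4 groups. Within sides A and B the change was −0.72 and −1.03 for WT, then −1.24 and −0.58 for LKO. The WT value of side A rests on ethanol library 1 alone, and with library 2 kept it was −1.32.

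Mbl1, which encodes the second mouse mannose-binding lectin, measured 268, 152, 234 and 179 FPKM in the WT control libraries 1 to 4, 171, 145, 109 and 106 in WT ethanol, 183, 179, 143 and 172 in LKO control and 173, 124, 113 and 119.9 in LKO ethanol. Control and ethanol libraries overlapped in both genotypes. Its estimate was −0.50 (SE 0.18, adjusted p = 0.109), and −0.53 (SE 0.16, adjusted p = 0.0298) without WT ethanol library 2. Serping1 encodes the C1 inhibitor, which blocks C1r, C1s, the MASP proteases and also kallikrein and factor XIIa. It measured 313, 316, 385 and 502 FPKM in the WT control libraries 1 to 4, 262, 261, 289 and 319 in WT ethanol, 359, 403, 406 and 544 in LKO control and 266, 266, 274 and 307 in LKO ethanol. The LKO groups did not overlap, while in WT ethanol library 4 lay above control libraries 1 and 2. Serping1 was estimated at −0.50 (SE 0.17, adjusted p = 0.0735), and at −0.48 (SE 0.14, adjusted p = 0.0201) without that library.

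The proteases and substrates of these pathways did not pass the test with all libraries or without WT ethanol library 2. C1ra and C1s1, the proteases of the C1 complex, were estimated at −0.78 and −0.60 with all libraries (adjusted p = 0.232 and 0.356), and by −0.44 and −0.22 without WT ethanol library 2. C4b, which encodes the C4 substrate of C1s, was estimated at −0.51 (adjusted p = 0.271) and by −0.54 without it. C2 stood at −0.10, Masp1 at −0.36 and Masp2 at −0.50, and without that library at −0.05, −0.04 and −0.29. C4bp, which encodes the plasma inhibitor of the C4b and C2a convertase, went from −0.31 to −0.02 without that library, whose 31.4 FPKM of C4bp lay far below the 139 to 195 of the others.

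C3, the point where all complement pathways meet, showed no ethanol response past its spread. It measured 942, 887, 2147 and 1822 FPKM in the WT control libraries 1 to 4, 750.5, 968, 1700 and 1948 in WT ethanol, 822, 931, 1848 and 1235 in LKO control and 537, 858, 1717 and 2094 in LKO ethanol. All 8 libraries of side B lay above all 8 of side A, and the diets overlapped. Its estimate was −0.06 (SE 0.32, adjusted p = 0.943), with a 95% interval of −0.74 to 0.61, and 0.00 without WT ethanol library 2 (interval −0.70 to 0.69). Cfi encodes factor I, the protease that inactivates C3b and C4b with the help of cofactors. It measured 396, 421, 363 and 354 FPKM in the WT control libraries 1 to 4, 320.5, 19.3, 287 and 255 in WT ethanol, 400.2, 456, 362 and 342 in LKO control and 302, 299, 253 and 256 in LKO ethanol. All ethanol libraries lay below all control libraries in both genotypes, and the 19.3 FPKM of WT ethanol library 2 lay far below the rest. Cfi was estimated at −0.93 (SE 0.43, adjusted p = 0.216) with all libraries and at −0.45 (SE 0.11, adjusted p = 0.0112) without that library, the smaller estimate having the smaller error. Cfb, which encodes factor B of the alternative pathway, stayed at 0 to 1.02 FPKM in all libraries and was not tested.

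Of 13 tested procoagulant and contact genes, F11 was called lower over both genotypes with all libraries, and F7, F9, F10, F11, F13b and Kng1 were without WT ethanol library 2 (median log2 change −0.52 and −0.30). F11 encodes factor XI, which thrombin or factor XIIa activates and which in turn activates factor IX. F11 measured 28.2, 44.5, 21.8 and 48.3 FPKM in the WT control libraries 1 to 4, 17.6, 7.25, 13.5 and 32.6 in WT ethanol, 45.8, 50.2, 68.8 and 59.7 in LKO control and 27.6, 21.1, 18.7 and 28.3 in LKO ethanol. In LKO the diets did not overlap, and in WT they did. F11 fell by 1.14 over both genotypes (SE 0.26, adjusted p = 0.0119), and the change was −0.97 (SE 0.21, adjusted p = 0.00451) without WT ethanol library 2. The changes within a genotype were −1.20 (SE 0.36, adjusted p = 0.196) in LKO and −1.08 (SE 0.36, adjusted p = 0.104) in WT, and without that library the LKO value had an adjusted p of 0.029. Within sides A and B the change was −0.97 and −0.60 for WT, then −0.96 and −1.44 for LKO. The WT value of side A rests on ethanol library 1 alone, and with library 2 kept it was −1.55.

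F13b encodes the carrier subunit of factor XIII, the enzyme that crosslinks fibrin. It measured 120.1, 131, 78.5 and 90.4 FPKM in the WT control libraries 1 to 4, 64.9, 1.23, 58.1 and 48 in WT ethanol, 113, 126, 108 and 90.3 in LKO control and 88.1, 70.1, 62.5 and 78.8 in LKO ethanol. The diets did not overlap in either genotype, and WT ethanol library 2, at 1.23 FPKM, had 0.0212 times the median of the other 3 WT ethanol libraries. The change was −1.28 (SE 0.52, adjusted p = 0.149) with that library and −0.70 (SE 0.14, adjusted p = 0.00341) without it, and in WT −2.02 (SE 0.74, adjusted p = 0.131) and −0.85 (SE 0.21, adjusted p = 0.02). Its estimate in WT thus moved by more than 1.5 times with 1 library, and its call rests on leaving that library out.

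F7 and F10 encode vitamin K dependent proteases: factor VII starts coagulation together with tissue factor, and activated factor X cleaves prothrombin. F7 measured 58.3, 82.8, 69.9 and 102 FPKM in the WT control libraries 1 to 4, 34.5, 68.5, 47.7 and 45.8 in WT ethanol, 75.1, 95.4, 93 and 81.3 in LKO control and 43, 36.7, 71.1 and 80.2 in LKO ethanol. Without WT ethanol library 2 the WT diets did not overlap, and in LKO ethanol library 4 reached into the control range. F7 was estimated at −0.66 (SE 0.21, adjusted p = 0.0654), and at −0.74 (SE 0.18, adjusted p = 0.00966) without that library. F10 measured 119, 168, 213 and 207 FPKM in the WT control libraries 1 to 4, 93.5, 135, 152 and 107 in WT ethanol, 175, 186, 204 and 203 in LKO control and 114, 110.1, 152 and 165 in LKO ethanol. The LKO diets did not overlap and the WT diets did. F10 was estimated at −0.52 (SE 0.18, adjusted p = 0.0951), and at −0.55 (SE 0.16, adjusted p = 0.0239) without WT ethanol library 2.

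F9 encodes factor IX, whose loss causes haemophilia B. It measured 79, 79, 74.8 and 70.4 FPKM in the WT control libraries 1 to 4, 65, 7.99, 57.6 and 59.7 in WT ethanol, 67.5, 67.4, 75.2 and 68.9 in LKO control and 63.7, 50.8, 53.1 and 57.1 in LKO ethanol. Each genotype showed a small gap between the diets, from 65 to 70.4 FPKM in WT and from 63.7 to 67.4 in LKO, and WT ethanol library 2 lay far below all. The change was −0.66 (SE 0.32, adjusted p = 0.249) with that library and −0.31 (SE 0.10, adjusted p = 0.0331) without it. Kng1 encodes kininogen, the source of bradykinin and a cofactor of the contact system. It measured 1369, 1256, 1124 and 1307 FPKM in the WT control libraries 1 to 4, 1267, 1411, 880.1 and 877 in WT ethanol, 1527, 1523, 1189 and 1217 in LKO control and 956, 1163, 995 and 957 in LKO ethanol. The LKO diets did not overlap and the WT diets did. Kng1 was estimated at −0.32 (SE 0.16, adjusted p = 0.279), and at −0.38 (SE 0.13, adjusted p = 0.0437) without that library. The closely related Kng2 did not pass the test, with an estimate of 0.19 (SE 0.17, adjusted p = 0.58), and was the single one of the 41 genes above its control in all 4 comparisons within genotype and side.

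F2 encodes prothrombin, the precursor of thrombin. It measured 650.3, 688, 710.2 and 652 FPKM in the WT control libraries 1 to 4, 623, 235, 605 and 527 in WT ethanol, 676, 751, 683 and 632 in LKO control and 578, 586, 587 and 553 in LKO ethanol. All ethanol libraries lay below all control libraries in both genotypes, by a narrow margin of 623 against 650.3 FPKM in WT and 587 against 632 in LKO. Its estimate was −0.39 (SE 0.20, adjusted p = 0.263), and −0.23 (SE 0.10, adjusted p = 0.119) without WT ethanol library 2, so it did not pass the test in either fit. F5, the cofactor of factor Xa, was estimated at −0.61 (SE 0.34, adjusted p = 0.334), and at −0.30 (SE 0.22, adjusted p = 0.361) without that library. F12, the starter of the contact pathway, was estimated at 0.07 (SE 0.20, adjusted p = 0.883), with an interval of −0.35 to 0.49, and at 0.11 without that library.

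The 3 fibrinogen chains were the most abundant of all the genes and ranged widely between libraries. Fgb, the beta chain, measured 3948, 2797, 2992 and 3142 FPKM in the WT control libraries 1 to 4, 4988, 1212, 1251 and 2406 in WT ethanol, 4564, 4316, 3543 and 3187 in LKO control and 4020, 2294, 6129 and 2563 in LKO ethanol. Fgg, the gamma chain, measured 3707, 2463, 2771 and 2491 FPKM in the WT control libraries 1 to 4, 4218, 1017, 1155 and 1964 in WT ethanol, 4215, 3699, 3141 and 2790 in LKO control and 4034, 2075, 5691 and 2269 in LKO ethanol. Fga, the alpha chain, measured 1184, 1056, 1674 and 1508 FPKM in the WT control libraries 1 to 4, 1593, 149, 664 and 1208 in WT ethanol, 1905, 1776, 1947 and 1697 in LKO control and 1656, 1137, 3190 and 1346 in LKO ethanol. LKO ethanol library 3 was the highest for all 3 and WT ethanol library 2 the lowest. Excluding that library, WT ethanol ranged from 1251 to 4988 FPKM of Fgb, wider than the whole of WT control. The ratio of Fgb to Fgg was 0.996 to 1.26 in 15 libraries and 1.19 in WT ethanol library 2. Fga varied more against Fgg: their ratio was 0.32 to 0.548 in the other 7 libraries of side A, 0.56 to 0.62 in the 8 of side B and 0.147 in WT ethanol library 2.

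None of the fibrinogen genes passed the test for ethanol or for genotype. The ethanol estimate over both genotypes was −0.56 (SE 0.38, adjusted p = 0.432) for Fga, −0.39 (SE 0.28, adjusted p = 0.476) for Fgb and −0.38 (SE 0.29, adjusted p = 0.496) for Fgg. Leaving out WT ethanol library 2 gave −0.21, −0.26 and −0.25 (adjusted p = 0.567, 0.533 and 0.567). The difference of LKO from WT over both diets was 0.90 (SE 0.38, adjusted p = 0.426) for Fga, 0.51 (SE 0.28, adjusted p = 0.559) for Fgb and 0.57 (SE 0.29, adjusted p = 0.509) for Fgg. Without WT ethanol library 2 these were 0.55, 0.38 and 0.44 (adjusted p = 0.181, 0.381 and 0.322), the first smaller by more than 1.5 times. The 95% interval for Fga, 0.07 to 1.02 without that library, lies above 0 at its lower end, but the adjusted p did not pass. On the control diet all 4 LKO libraries lay above all 4 WT libraries for Fga, 1697 to 1947 against 1056 to 1674 FPKM. Such a gap was found for 1 of the 41 genes and for 1.61% of all genes, so it does not set the 41 genes apart.

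**Figure D3:**
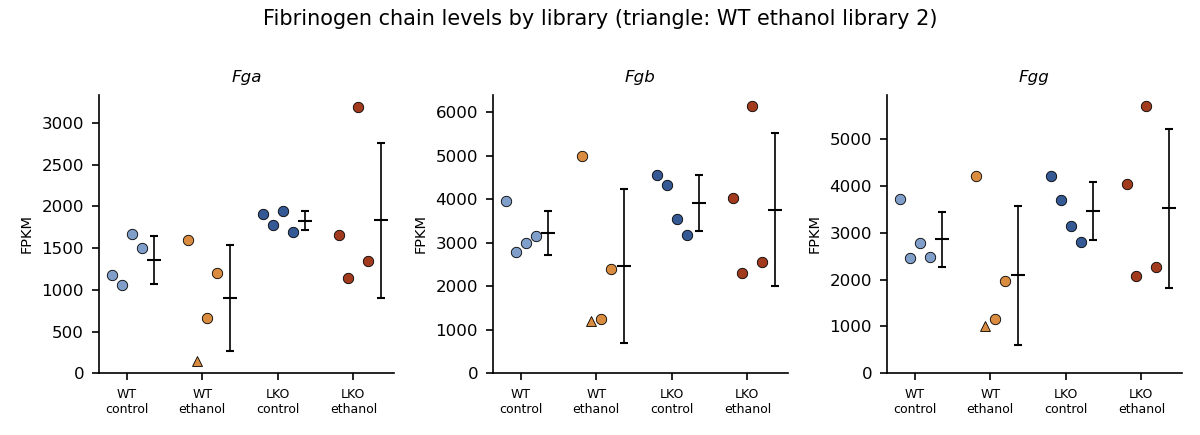
FPKM by library (y axis) of the fibrinogen alpha, beta and gamma chain genes in the 4 groups (x axis), with the mean and SD. LKO ethanol library 3 is the highest in each panel, at 3190, 6129 and 5691 FPKM, and WT ethanol library 2, the triangle, the lowest.

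Of the 8 genes for proteins that restrain clotting, dissolve clots or inhibit that, Proc alone was called over both genotypes, with all libraries and without WT ethanol library 2 (median log2 change −0.42 and −0.19). Proc encodes protein C, which on activation by thrombin and thrombomodulin inactivates factors Va and VIIIa. Proc measured 346, 343, 381 and 369.9 FPKM in the WT control libraries 1 to 4, 264, 193, 258 and 240.0 in WT ethanol, 305, 379, 331 and 349 in LKO control and 250.2, 238, 224 and 258 in LKO ethanol. All ethanol libraries lay below all control libraries in both genotypes, and the values within a group were close. Proc fell by 0.54 over both genotypes (SE 0.15, adjusted p = 0.033), with similar changes of −0.60 in WT and −0.49 in LKO. Without WT ethanol library 2 the change was −0.49 (SE 0.10, adjusted p = 0.00341). With that library kept, the call was lost, at an adjusted p of at most 0.0801, when any control library or LKO ethanol library 1, 2 or 3 was left out.

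Serpinc1, the gene of antithrombin and the most abundant of this class, measured 911, 1000, 1152 and 1155 FPKM in the WT control libraries 1 to 4, 879.8, 101, 1032 and 782 in WT ethanol, 1037, 1070, 1056 and 1052 in LKO control and 842, 886, 1023 and 1020 in LKO ethanol. In LKO the diets did not overlap, and WT ethanol library 2 held 101 FPKM against 782 to 1155 in the others. Its estimate was −0.59 (SE 0.36, adjusted p = 0.377), and −0.20 (SE 0.11, adjusted p = 0.231) without that library. Plg, the gene of plasminogen, was estimated at −0.43 (SE 0.18, adjusted p = 0.149) and at −0.41 (SE 0.15, adjusted p = 0.067). Pros1, which encodes the protein S cofactor of protein C, was estimated at −0.42 with all libraries and at −0.01 without WT ethanol library 2. Serpind1 (heparin cofactor II), Serpinf2 (antiplasmin), Cpb2 (the fibrinolysis inhibitor TAFI) and Hrg (histidine-rich glycoprotein) stood at −0.36, −0.28, −0.32 and −0.53, with adjusted p from 0.386 to 0.605. Without WT ethanol library 2 they stood at −0.14, −0.18, −0.06 and −0.43, with adjusted p from 0.381 to 0.869.

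None of the 41 genes differed past the threshold between LKO and WT with all libraries or without WT ethanol library 2. LKO against WT gave 0 calls on the control diet, on the ethanol diet and over both diets in limma's test in these fits. Of all genes, 0.00885%, 0.0797% and 0.142% were called in the 3 comparisons with all libraries, and 0.0443%, 0.221% and 1.07% without that library. At an unadjusted p under 0.05 the counts among the 41 were 0, 4 and 2 with all libraries and 1, 3 and 5 without it, against 3.45%, 11.9% and 10.4%, then 9.6%, 17.1% and 22.7%, of all genes. limma's voom on recovered reads also gave 0 calls, array weights gave 1 lower over both diets, Pros1, and a term for the side without WT ethanol library 2 gave 2 lower. The median difference of the 41 genes over both diets changed sign with the library and the scaling: 0.15 with all libraries, −0.02 without WT ethanol library 2, and 0.18 without it under median-of-ratios scaling.

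On the ethanol diet without WT ethanol library 2, the smallest adjusted p of the 41 genes were those of C9 and Pros1. C9 was −1.08 (SE 0.29, adjusted p = 0.13) and Pros1 −0.61 (SE 0.17, adjusted p = 0.133) in LKO against WT. Both had all 4 LKO ethanol libraries below the 3 WT ethanol libraries. They were the only 2 of the 41 genes to do so, a share no higher than the 5.89% of all genes. With that library kept the values were −0.64 and 0.21, so that the direction for Pros1 turned on 1 library. F11 over both diets was 0.63 (SE 0.26, adjusted p = 0.413) with all libraries and 0.46 (SE 0.21, adjusted p = 0.203) without it. With a term for the split and without WT ethanol library 2, Pros1 at −0.40 (SE 0.10, adjusted p = 0.0319) and F5 at −0.38 (SE 0.11, adjusted p = 0.0394) were called lower over both diets, when 9.68% of all genes were called lower.

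The ethanol response was not shown to differ between the genotypes. The interaction, the ethanol response of LKO minus that of WT, called 0 of the 41 genes and 0% of all genes in limma's test, with and without WT ethanol library 2, and at an unadjusted p under 0.05 the counts among the 41 were 0 and 1 (C9), against 3.2% and 4.42% of all genes. The interaction of C9 was −0.65 (SE 0.56, adjusted p = 0.927) with all libraries and −1.08 (SE 0.39, adjusted p = 0.968) without that library, with intervals of −1.82 to 0.53 and −1.92 to −0.25. For F13b the estimate went from 1.48 to 0.31 when the library was left out. Both intervals of C9 span more than 1.5 log2 units, which limits the size of a difference between genotypes that could be detected.

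The split within groups touched these genes as it did many others. Setting WT ethanol library 2 aside, 18 of the 41 genes were higher on side B in all 4 groups and 9 were lower in all 4, against 28.5% and 14.8% of all genes. C3 was 537 to 942 FPKM on side A and 1235 to 2147 on side B, Hrg 185 to 317 against 326 to 697, and F12 149 to 203 against 228 to 331. Cpb2 went the other way, at 256 to 330.0 on side A and 147 to 247 on side B. In these 4 genes the sides did not overlap. Proc and F9 showed no such split, with ratios of side B to side A of 0.943 to 1.09 and 0.902 to 1.07 over the groups. Since each group held libraries of both sides, diets could be compared within them: 26 of the 41 genes were lower with ethanol in all 4 comparisons of a genotype and a side, against 12.8% of all genes, and 1, Kng2, was higher in all 4, against 26.1%. The comparison of WT on side A rests on a single ethanol library because library 2 was set aside. The 26 include the 14 called lower over both genotypes without WT ethanol library 2. C3 was lower in 3 of the 4 comparisons, and Fga, Fgb and Fgg in 2. A term for the side, without WT ethanol library 2, gave 23 genes lower over both genotypes (9.32% of all genes lower), 13 in WT (4.7%) and 15 in LKO (4.14%).

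**Figure D4:**
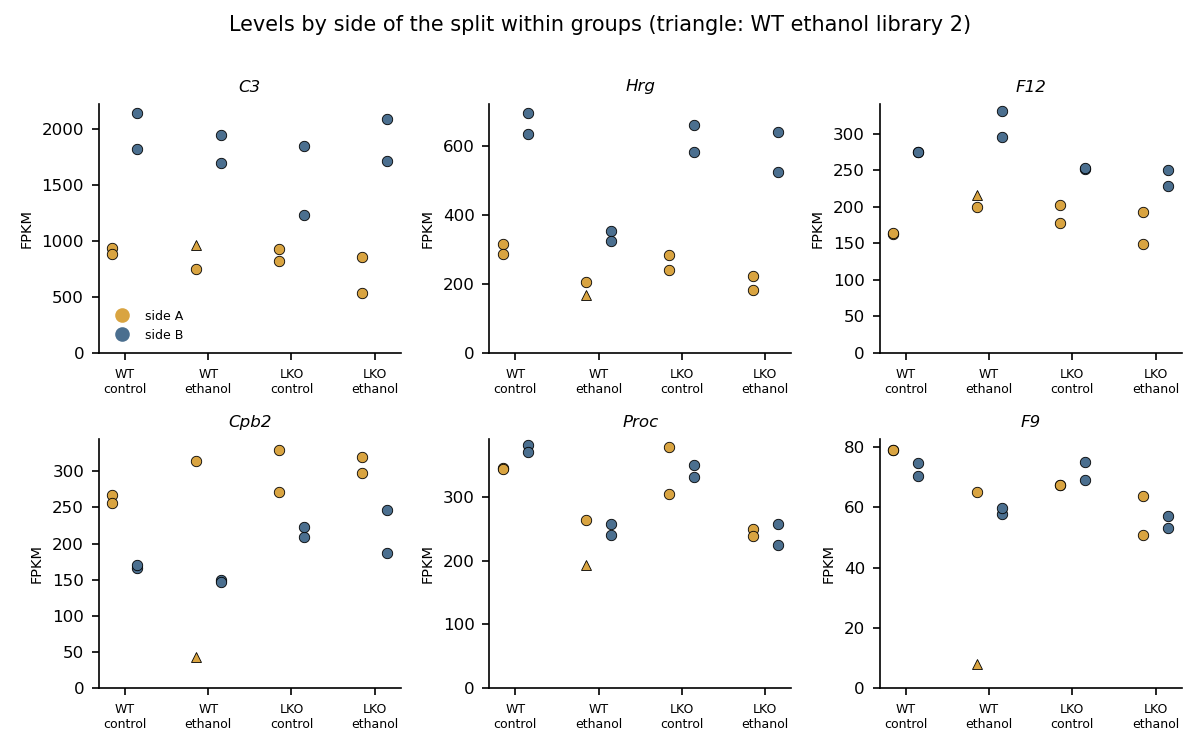
FPKM by library (y axis) in the 4 groups (x axis) for C3, Hrg, F12, Cpb2, Proc and F9, coloured by side of the split. C3, Hrg and F12 are higher and Cpb2 lower on side B in every group once WT ethanol library 2, the triangle, is set aside, while Proc and F9 show no such split.

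WT ethanol library 2 was below each of the other 15 libraries in 26 of 41 genes, against 52.3% of all genes, and above each in 1, C8g, against 13.6%. Its ratio to the median of the other 3 WT ethanol libraries ran from 0.0212 for F13b to 5.65 for C8g, with a median of 0.502. Erythroid markers summed to 1914 FPKM in it against 91.9 to 265 in the other 15 libraries, through Hba-a1 and Hbb-bs, while Alas2, at 1.64 FPKM, was the lowest of the 16. Sinusoidal endothelial markers summed to 12.1 FPKM against 28.2 to 87.4, with Stab2 and Pecam1 inside the range of the others. Stellate markers summed to 20.6 against 37 to 153, through Dcn at 4.56, while Des, at 5.08, was the highest of the 16. Cholangiocyte markers summed to 74.98 against 10.8 to 28.6, of which Spp1 held 66.35. Krt7 and Epcam were also the highest of the 16, while Krt19 and Sox9 lay inside the range of the others. The part of these markers in the low values of the library was not tested. F7, F10, Mbl1, Kng1, C4b and Kng2 were above that median.

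**Figure D5:**
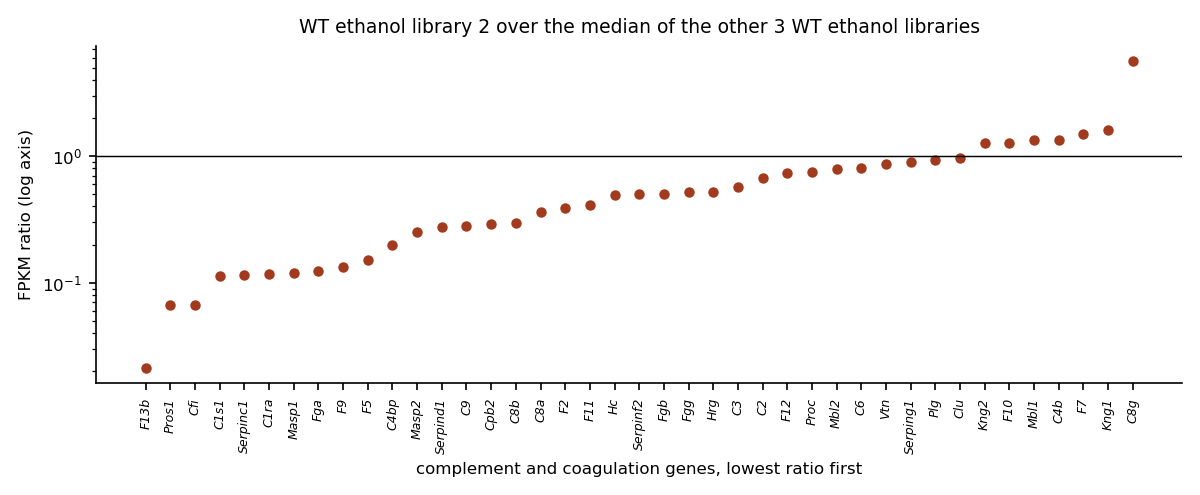
FPKM in WT ethanol library 2 divided by the median of the other 3 WT ethanol libraries (y axis, log scale) for the 41 genes from the lowest ratio to the highest (x axis). The line marks a ratio of 1, and the points run from 0.0212 for F13b to 5.65 for C8g.

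Of 31 other complement genes 21 were tested, and 2 were called higher over both genotypes, with all libraries and without WT ethanol library 2. The receptors C5ar1 and C3ar1, which myeloid cells carry for the anaphylatoxins C5a and C3a, rose by 1.20 (SE 0.18, adjusted p = 0.001) and 0.66 (SE 0.17, adjusted p = 0.0236), and by 1.16 and 0.67 without that library. In LKO on ethanol C3ar1 was high in library 2 alone, at 2.98 FPKM against 0.769 to 0.921 in the other 3, which lie within the range of LKO control. C5ar1 measured 0.151 to 0.655 FPKM in the 8 control and 1.05 to 4.57 in the 8 ethanol libraries, without overlap, while Hc, the source of its ligand, fell.

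Of 27 other coagulation and fibrinolysis genes 21 were tested. Over both genotypes Plaur, the urokinase receptor, rose by 1.31 (SE 0.26, adjusted p = 0.00494), and Thbd, the endothelial thrombin receptor that activates protein C, by 1.45 (SE 0.34, adjusted p = 0.0161). The values were 1.20 and 1.74 without WT ethanol library 2. In LKO on ethanol Plaur was high in library 2 alone, at 6.04 FPKM, and at most 0.830 in the other 3. Proz, the gene of the liver-made vitamin K dependent protein Z, was −0.68 (SE 0.12, adjusted p = 0.00142) without WT ethanol library 2 and −1.06 (SE 0.36, adjusted p = 0.0802) with it. Among 5 vitamin K cycle genes Nqo1 rose by 1.34 (SE 0.32, adjusted p = 0.0167), and by 1.54 without that library. Vkorc1, the recycling reductase, was −0.08 (SE 0.30, adjusted p = 0.912) with all libraries and −0.40 (SE 0.13, adjusted p = 0.0424) without that library.

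None of 13 liver transcription factor and cytokine receptor genes was called over both genotypes with all libraries, and Foxa3 alone was called without WT ethanol library 2, at 0.54 (SE 0.14, adjusted p = 0.0157). Cebpa, which binds the C/EBP motif, was −0.62 (SE 0.23, adjusted p = 0.106) with all libraries and −0.49 (SE 0.18, adjusted p = 0.0667) without that library. Among the cell marker lists, hepatocyte markers had 0 of 6 called over both genotypes with all libraries and 3 without WT ethanol library 2: Cps1 and Cyp3a11 higher and Ttr lower. Albumin, another secreted hepatocyte product, was estimated at −0.29 (SE 0.19, adjusted p = 0.41) and −0.20 (SE 0.17, adjusted p = 0.469). Kupffer cell markers had 0 and 1 of 6 called, the 1 being Marco, and their sum ran from 86.1 to 306 FPKM in the 8 control and from 51.9 to 298 in the 8 ethanol libraries. The sums of neutrophil markers were 0.938 to 6.11 FPKM on control diet and 2.58 to 20.4 on ethanol, with Retnlg called higher. Lyve1 of 5 sinusoidal endothelial markers, Des and Hgf of 6 stellate markers and Sox9 of the 2 tested cholangiocyte markers were called higher with all libraries. Of all genes 4.59% were called higher. The lists did not all move the same way: group means of Clec4g, Stab2 and Kdr were lower on ethanol in both genotypes, and that of Pecam1 higher. Among stellate markers the mean of Reln was lower in both genotypes and that of Dcn higher. None of the 2 tested lymphocyte, 2 tested platelet and 3 erythroid markers was called. Whether these cell markers have a part in the ethanol response of the complement and coagulation genes was not tested.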

How the data were processed

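Liver RNA of 16 libraries in 4 groups of 4 was measured by RNA-seq. The authors deposited FPKM values per gene. Per the submitters' processing notes, fastp, STAR 2.6.1, HTSeq and DESeq2 were used with the mm10 build. The annotation, its version and the strand setting of the counting are not given in the sources used here. Groups were taken from the labels, and library numbers follow record order.

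FPKM are not counts, so the test was run on a log scale: limma 3.58.1 in R 4.3.3 on log2(FPKM + 1), for the 11298 of 35275 genes with at least 1 FPKM in at least 4 libraries. The model held the 4 group means with a mean-variance trend, tests were two-sided, and p-values were adjusted over all genes kept by the Benjamini-Hochberg method with a threshold of 0.05. Changes on this scale understate those of low genes. For abundant genes they are close to log2 ratios. The steps between low values gave whole reads for 100% of values, within 0.01 of a read, and these reads served for the depth and for limma's voom as an alternative. Other alternatives were a pseudocount of 0.1, no filter, a minimum of 5 FPKM, quantile and median-of-ratios scaling, array weights, only the libraries compared, the side of the split as a term, and each library left out. The procedure was tested on simulated data. These held neither the split within groups nor a library composed like WT ethanol library 2, so they do not show how the test behaves with either. Tables were read with pandas 2.3.3 in Python 3.11.15.

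The 43 genes and the lists of other genes were chosen with earlier results of these data known. Values in every library are given for the genes called in any comparison, with all libraries or without WT ethanol library 2, by smallest adjusted p and at most 14, and also for Fgb, Serpinc1, Mbl2 and C3 as the most abundant of their role, with group means for Vtn. Of the other lists at most 4 genes each are named by smallest adjusted p. Some genes of these lists are not reported here. Fga, Fgg, F2, the remaining genes of the 43 and the named cell markers outside this rule were chosen after their values were seen. Promoters are those of RefSeq on GRCm38.p6, and gene positions and 3′ untranslated regions those of GENCODE M21 on GRCm38.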

Additional observations from a re-analysis of the deposited data

Results flagged for a closer look

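F9 in WT ethanol library 2, at 7.99 FPKM, lay far from the other 3 WT ethanol libraries, which held 57.6 to 65 FPKM. Its gap to the nearest of them was 0.871 of the range of the group, above Dixon's critical value for groups of 4. The same check was run on 56 groups of 4, the 14 genes called lower over both genotypes without WT ethanol library 2 in each of the 4 groups, and chance alone passes that value in about 1 in 20 groups. Without this library the ethanol response of F9 over both genotypes was −0.31 (SE 0.10, limma's adjusted p = 0.0331).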

How the results depend on the processing

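The calls over both genotypes for C9, C8a, F11 and Mbl2 kept their direction and side of the threshold without any 1 library and under 12 other settings, and those for Hc and Proc under the 12 settings but not without 11 of the libraries. C8a in WT lost its call under 6 and C9 in LKO under 1 of 13 other settings. No setting changed the sign of the ethanol estimates of the 14 genes or of the mean genotype differences of the fibrinogen genes. Pros1 was not followed over all settings. Counts below are of the 41 genes, then of all genes kept, where both moved by over 1.5 times. With all libraries they were 1 and 472 for the WT ethanol response, 1 and 48 for the LKO ethanol response, 0 and 1 for LKO against WT on control diet, 0 and 9 for LKO against WT on ethanol, 0 and 0 for the interaction, 6 and 879 for the mean ethanol response and 0 and 16 for the mean genotype difference. A pseudocount of 0.1 gave 0 of the 41 for the WT ethanol response. No filter gave 0 and 283 for the WT ethanol response, 0 and 18 for the LKO ethanol response, 3 of all genes for LKO against WT on ethanol and 5 of all genes for the mean genotype difference. Quantile normalization gave 6 and 943 for the WT ethanol response, 106 of all genes for the LKO ethanol response, 2 of all genes for LKO against WT on control diet and 1449 of all genes for the mean ethanol response. Median-of-ratios scaling gave 4 and 765 for the WT ethanol response, 2 and 122 for the LKO ethanol response and 1340 of all genes for the mean ethanol response. Array weights gave 3 and 1724 for the WT ethanol response, 8 and 1117 for the LKO ethanol response, 438 of all genes for LKO against WT on control diet, 498 of all genes for LKO against WT on ethanol, 11 of all genes for the interaction, 14 and 2921 for the mean ethanol response and 1 and 1581 for the mean genotype difference. Only the libraries compared gave 0 and 60 for the WT ethanol response, 2 and 248 for the LKO ethanol response, 13 of all genes for LKO against WT on control diet and 3 of all genes for LKO against WT on ethanol. A term for the side gave 4 and 776 for the WT ethanol response, 95 of all genes for the LKO ethanol response and 13 and 1389 for the mean ethanol response. A term for the side without WT ethanol library 2 gave 13 and 2229 for the WT ethanol response, 15 and 1206 for the LKO ethanol response, 9 of all genes for LKO against WT on control diet, 178 of all genes for LKO against WT on ethanol, 23 and 3684 for the mean ethanol response and 2 and 1255 for the mean genotype difference. Voom on recovered reads gave 0 of the 41 for the WT ethanol response, 5 of all genes for LKO against WT on ethanol and 10 of all genes for the mean genotype difference. Quantile normalization without WT ethanol library 2 gave 4 and 1099 for the WT ethanol response, 3 and 501 for the LKO ethanol response, 9 of all genes for LKO against WT on control diet, 14 and 2256 for the mean ethanol response and 62 of all genes for the mean genotype difference. Median-of-ratios scaling without WT ethanol library 2 gave 5 and 938 for the WT ethanol response, 4 and 536 for the LKO ethanol response, 8 of all genes for LKO against WT on control diet, 5 of all genes for LKO against WT on ethanol, 18 and 2221 for the mean ethanol response and 91 of all genes for the mean genotype difference. Voom on recovered reads without WT ethanol library 2 gave 2 and 1000 for the WT ethanol response, 2 and 433 for the LKO ethanol response, 5 of all genes for LKO against WT on control diet, 19 of all genes for LKO against WT on ethanol, 14 and 2262 for the mean ethanol response and 148 of all genes for the mean genotype difference. A minimum of 5 FPKM gave 257 of all genes for the WT ethanol response, 552 of all genes for the mean ethanol response and 8 of all genes for the mean genotype difference. That minimum left 6729 genes to test, and no filter left 24377, against 11298 in the main fit. Counts of all genes under these 2 settings are therefore out of other totals. Leaving out 1 library at a time gave 0 to 3 and 146 to 1071 for the WT ethanol response, 0 to 2 and 6 to 409 for the LKO ethanol response, 0 to 0 and 1 to 5 for LKO against WT on control diet, 0 to 0 and 1 to 387 for LKO against WT on ethanol, 0 to 0 and 0 to 6 for the interaction, 4 to 14 and 519 to 2312 for the mean ethanol response and 0 to 0 and 8 to 121 for the mean genotype difference. The highest counts of the mean ethanol response came without WT ethanol library 2, and the 387 genes and 6 genes in LKO against WT on ethanol and in the interaction without WT ethanol library 1. Array weights set that of WT ethanol library 3 at 0.014 and that of library 2 at 0.0502, and their estimation stopped before convergence. The cause of the other changes was not tested. The 3 settings that join WT ethanol library 2 with another scaling or with voom were chosen after seeing the data. The fit to only the libraries compared was not run for the interaction and the 2 means. No paired analysis was possible because no replicate number is shared between groups in the labels, and nothing states that samples with consecutive numbers in their titles form pairs. Depth limits F13b in WT ethanol library 2, which rests on 29 reads. Cfb stayed near or below 1 FPKM, and its overlap with Gm20547 leaves that value uncertain. FPKM values share a total, so a change in a few abundant transcripts moves all others.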
